A study of Mus musculus with 12 samples.

Results

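The endosomal Toll-like receptors are the branch of the receptor family that reads microbial products inside the cell, and in mice they comprise Tlr3, Tlr7, Tlr8, Tlr9, Tlr11, Tlr12 and Tlr13. Together with Unc93b1, which encodes their shared chaperone, they make a list of 8 genes, taken by name. Of these 8 genes, 7 had a probe set that names a single gene, out of 19938 genes with such a value. Tlr11 had none, so no level is given for it. RNA of sorted mature conventional dendritic cells from mouse spleen was measured on 12 GeneChip arrays, with 2 biological replicates in each of 6 groups. The groups were cDC1 and cDC2, the main classes of conventional dendritic cells, from Flt3L KO mice, from Flt3 KO mice and from WT mice. Flt3 is the cytokine receptor that drives dendritic cell development and Flt3L is its ligand, so both knockouts act on the same receptor system. All mice were at steady state and received no agent, and every spleen was digested with collagenase B and DNase. The labels do not give the knockout alleles, the age or number of mice behind an array, or whether spleens were pooled. They also do not say whether cDC1 and cDC2 with the same replicate number came from the same animals, so the p-values below measure the spread between these samples, part of which may be technical.

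TLR3 binds double-stranded RNA and signals through the adaptor TRIF, whereas the other receptors of the list signal through MyD88. TLR7 senses single-stranded RNA, TLR8 is its close relative, TLR9 senses unmethylated CpG DNA, TLR13 senses bacterial ribosomal RNA, and TLR11 and TLR12 sense the profilin of Toxoplasma. UNC93B1 carries these receptors out of the endoplasmic reticulum to endosomes, where proteases cut their ectodomains, and among conventional dendritic cells TLR3 is known as a receptor of cDC1 and TLR7 as a receptor of cDC2.

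Promoter windows from RefSeq, on mouse build GRCm38.p6, are shown for the 5 receptor genes with a measured level that the promoter table holds, because these genes differed in level between cDC1 and cDC2. The table matched 6 of the 8 genes by symbol, Tlr11 included. Each window holds 250 bases before the annotated gene start and 50 bases from it on, and is printed on the strand of the gene in lower case. Capitals mark matches to 4 motifs searched on both strands. These were the interferon-stimulated response element (GAAA, 2 bases of any kind and GAAA), the ETS-IRF composite element (GGAA, 2 bases of any kind and GAAA), the core of a PU.1-type ETS motif (GAGGAA) and the AP-1 motif (TGANTCA). The first 2 motifs can share bases with each other, and TGANTCA reads the same on both strands. The Tlr3 window is chr8:45410331-45410630 (minus strand), the Tlr12 window chr4:128618570-128618869 (minus strand), the Tlr8 window chrX:167264280-167264579 (minus strand), the Tlr9 window chr9:106222348-106222647 (plus strand) and the Tlr13 window chrX:106143025-106143324 (plus strand).
Tlr3: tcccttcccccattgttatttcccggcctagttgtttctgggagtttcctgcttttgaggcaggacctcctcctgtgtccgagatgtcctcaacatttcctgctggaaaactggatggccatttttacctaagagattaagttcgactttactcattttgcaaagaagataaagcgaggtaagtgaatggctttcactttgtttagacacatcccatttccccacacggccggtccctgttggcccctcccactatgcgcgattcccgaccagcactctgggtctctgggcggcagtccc
Tlr12: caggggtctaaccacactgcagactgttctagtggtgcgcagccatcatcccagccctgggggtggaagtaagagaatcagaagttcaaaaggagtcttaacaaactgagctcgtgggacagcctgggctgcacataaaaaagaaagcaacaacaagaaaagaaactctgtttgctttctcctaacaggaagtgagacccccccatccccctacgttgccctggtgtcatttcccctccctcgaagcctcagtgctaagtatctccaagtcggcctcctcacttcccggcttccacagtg
Tlr8: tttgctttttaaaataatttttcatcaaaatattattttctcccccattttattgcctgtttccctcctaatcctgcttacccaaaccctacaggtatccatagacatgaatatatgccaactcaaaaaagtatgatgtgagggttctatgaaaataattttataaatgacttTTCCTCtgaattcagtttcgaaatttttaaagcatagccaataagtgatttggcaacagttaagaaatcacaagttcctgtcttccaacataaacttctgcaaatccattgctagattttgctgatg
Tlr9: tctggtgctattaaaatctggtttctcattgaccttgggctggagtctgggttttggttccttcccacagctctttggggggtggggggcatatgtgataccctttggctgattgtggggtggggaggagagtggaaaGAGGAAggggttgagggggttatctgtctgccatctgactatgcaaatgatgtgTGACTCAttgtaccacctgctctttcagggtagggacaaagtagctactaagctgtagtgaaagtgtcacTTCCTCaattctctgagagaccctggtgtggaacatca
Tlr13: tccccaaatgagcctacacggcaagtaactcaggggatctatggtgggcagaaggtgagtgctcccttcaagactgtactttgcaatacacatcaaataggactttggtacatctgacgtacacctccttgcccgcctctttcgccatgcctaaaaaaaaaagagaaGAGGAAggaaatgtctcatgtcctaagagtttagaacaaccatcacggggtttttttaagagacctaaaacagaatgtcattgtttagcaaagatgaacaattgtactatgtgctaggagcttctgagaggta

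The windows of Tlr3 and Tlr12, the genes with more transcript in cDC1, held 0 matches to any of the 4 motifs. The window of Tlr8 held TTCCTC, the reverse complement of GAGGAA, with its first base at -77 from the gene start. The Tlr9 window held GAGGAA at -112, TTCCTC at 13 and TGACTCA at -58, and the Tlr13 window held GAGGAA at -83. Of 32851 mouse promoter windows of the same length, 28.3% held GAGGAA on either strand, 7.81% held TGANTCA, 3.44% held the interferon-stimulated response element and 2.72% the ETS-IRF composite element. The matches describe letters in these windows only.

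**Figure D1:**
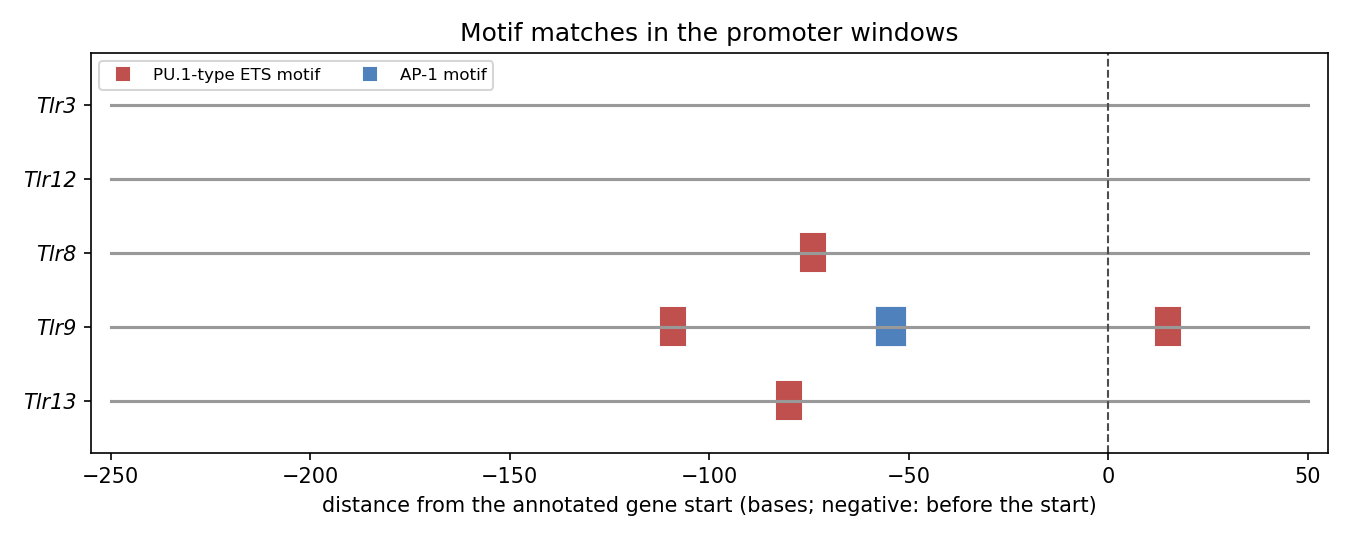
Position of motif matches in the promoter windows of 5 endosomal receptor genes, against distance from the annotated gene start in bases; red blocks are GAGGAA or its reverse complement and the blue block is TGACTCA. Tlr8, Tlr9 and Tlr13 held matches, and Tlr3 and Tlr12 held 0.

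The array values are intensities on a linear scale with close to the same distribution on every array. The median intensity of all probe sets was 59.0 to 63.0 per array and the lower quartile 23.3 to 25.7. Flt3 itself was measured at 357 and 370 in Flt3 KO cDC1, against 2333 and 2265 in WT cDC1, and at 351 and 371 in Flt3 KO cDC2, against 1817 and 1742 in WT cDC2, so it fell 6.32-fold and 4.93-fold (adjusted p = 5.25e-10 and 3.17e-09, limma). The Flt3l probe set averaged 124 in Flt3L KO cDC1 and 113 in WT cDC1 (log2 difference 0.13, adjusted p = 0.403 with limma), and 113 in Flt3L KO cDC2 and 147 in WT cDC2 (log2 difference -0.37, adjusted p = 0.0267). The deleted stretch is not known here, so neither value checks the Flt3L KO labels. One array stood apart: WT cDC1 replicate 1 had the lower quartile of 25.7, against at most 24.3 on the others, and its log2 values differed from those of WT cDC1 replicate 2 with an SD of 0.21 over the genes, against 0.131 to 0.154 between the replicates of other groups. Leaving out that array changed some calls and counts. The value without it is given for some of these only, so a count printed without one need not hold. All 10 of 10 listed cDC1 markers were higher and 9 of 10 cDC2 markers lower in cDC1 than in cDC2 in each genotype, Notch2 being the exception, so the labelled cell types carried their defining markers.

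Which endosomal receptors each subset expresses was compared first, as cDC1 against cDC2 within each genotype. Tlr3 and Tlr12 were higher in cDC1 and Tlr7, Tlr8, Tlr9 and Tlr13 were higher in cDC2, in mice of all 3 genotypes, while the chaperone Unc93b1 differed least. In WT mice 6 of the 7 measured genes passed the test, 2 higher and 4 lower in cDC1 (adjusted p under 0.05 with limma and Benjamini-Hochberg adjustment over 14954 genes). The same test called 39.4% of all genes, 21.0% as higher and 18.4% as lower, so the count by itself is not particular to these receptors. By the size of the log2 difference, Tlr3 ranked 16 and Tlr12 ranked 83 among the 14954 genes. Tlr7 ranked 7 and Tlr8 ranked 278, but their cDC1 values were dim, so these ranks are uncertain. The median log2 difference of the 7 genes was -0.60, against 0.07 over all genes tested. Without WT cDC1 replicate 1 the same number passed, and the log2 differences were 4.79 for Tlr3, 3.34 for Tlr12, -5.30 for Tlr7, -1.98 for Tlr8, -0.71 for Tlr9, -0.60 for Tlr13 and 0.21 for Unc93b1. Because these are bulk samples, fewer expressing cells and less RNA per cell cannot be told apart in any value below. Probe sets of different genes differ in brightness per transcript, so levels are compared only within a gene. With 2 arrays in a group, arrays of 2 groups can lie apart without a difference between the groups. The share of all genes with arrays apart was not counted, so arrays that did not overlap describe the values only.

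**Figure D2:**
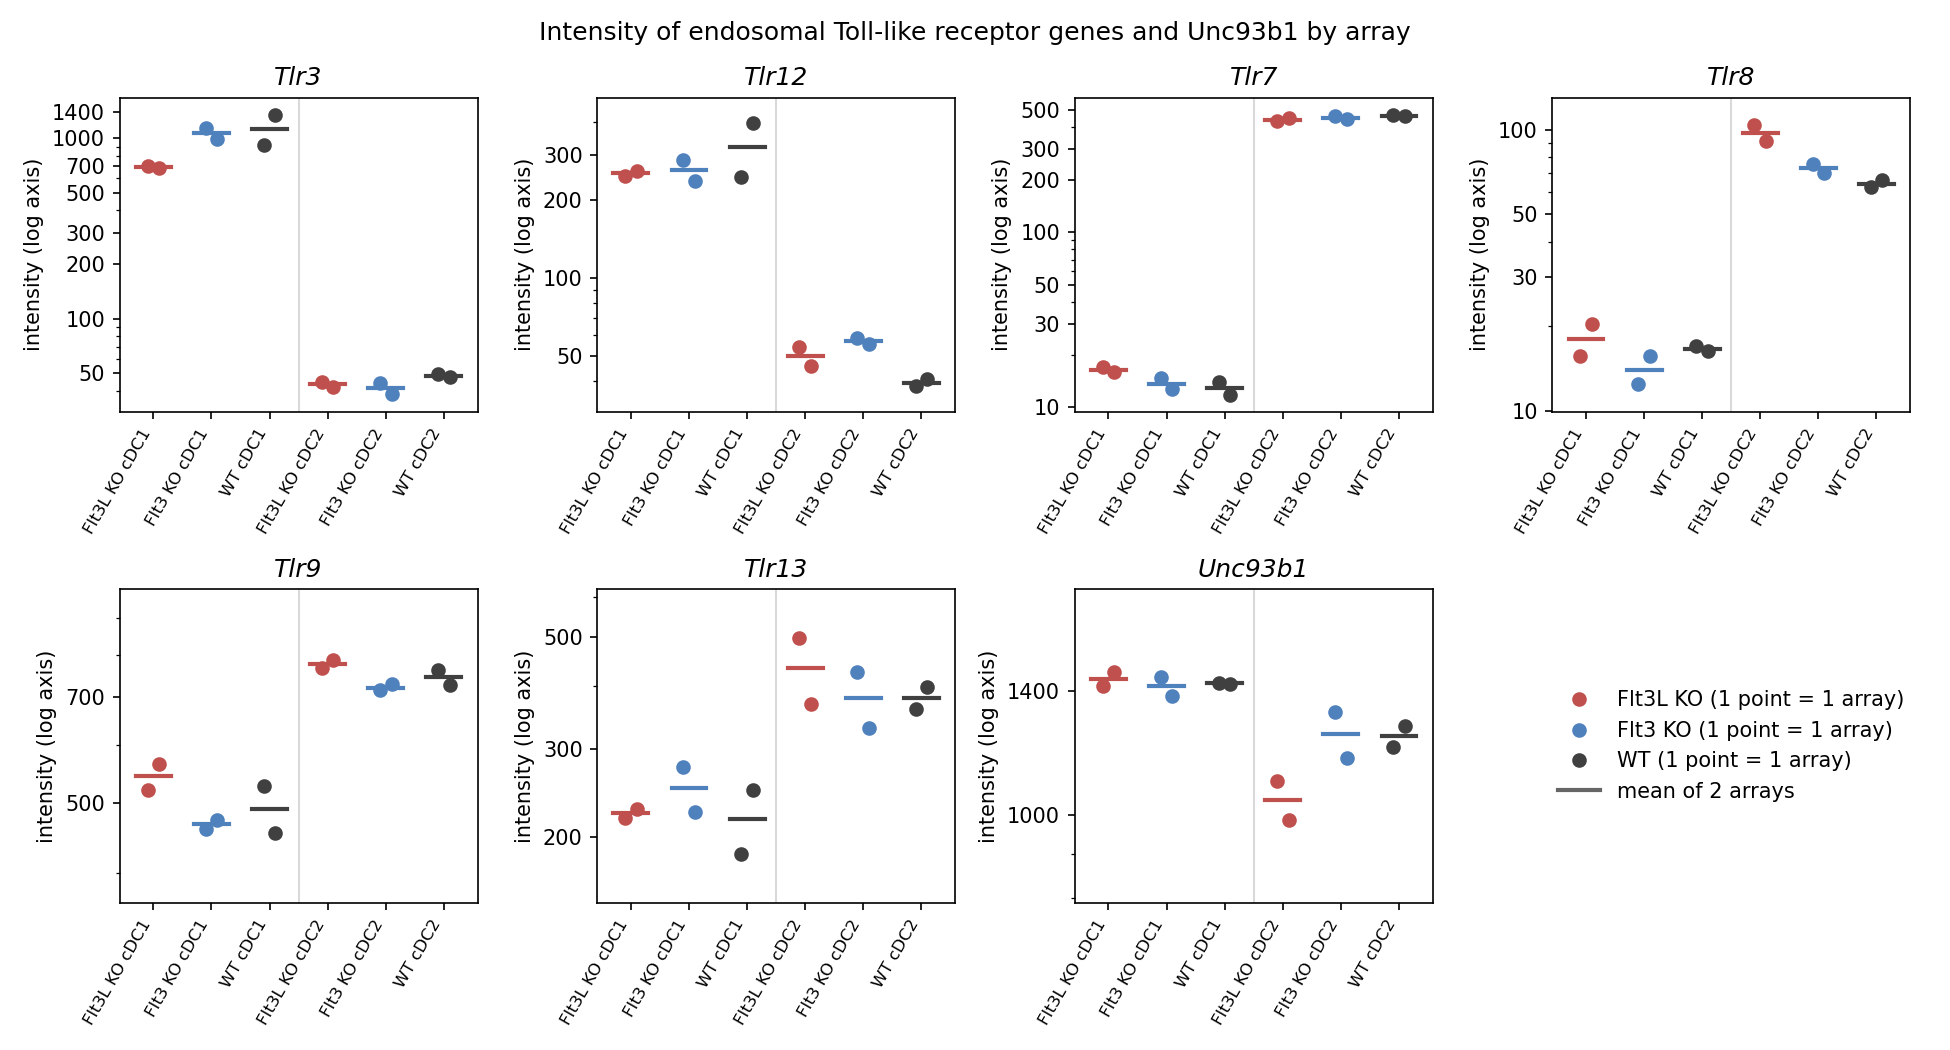
Intensity (log axis) of the 7 measured genes on each of the 12 arrays; 1 point is 1 array, coloured by genotype, and the bar is the mean of 2 arrays. Tlr3, Tlr12 and Unc93b1 were higher in cDC1 (left of each panel) and Tlr7, Tlr8, Tlr9 and Tlr13 in cDC2 (right), with no overlap between the cell types within a genotype. The share of all genes without such overlap was not counted. Within a genotype, the Unc93b1 difference passed limma's test in Flt3L KO mice only.

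Tlr3, the double-stranded RNA receptor, had an intensity of 698 and 683 in Flt3L KO cDC1, 1147 and 992 in Flt3 KO cDC1, and 921 and 1337 in WT cDC1. In cDC2 it read 44.5 and 42.1 in Flt3L KO, 44.1 and 38.3 in Flt3 KO and 49.5 and 47.5 in WT mice. Every cDC1 array lay far above every cDC2 array. The mean was 1129 ± 295 in WT cDC1 and 48.5 ± 1.37 in WT cDC2 (SD, n = 2 each), a difference of 4.52 on the log2 scale (SE 0.14), or 22.9-fold (adjusted p = 6.33e-11, limma). The fold between cDC1 and cDC2 was 15.9 in Flt3L KO mice and 26.0 in Flt3 KO mice. From the highest group mean to the lowest, the order was WT cDC1, Flt3 KO cDC1, Flt3L KO cDC1, WT cDC2, Flt3L KO cDC2 and Flt3 KO cDC2. The arrays of the first pair overlapped, as did those of the last pair, and the other neighbours were apart.

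Tlr12, a profilin receptor, followed the same division at a smaller size. Its intensity was 247 and 260 in Flt3L KO cDC1, 286 and 238 in Flt3 KO cDC1 and 245 and 397 in WT cDC1. In cDC2 the arrays read 54.2 and 45.8 in Flt3L KO, 58.6 and 55.4 in Flt3 KO and 38.0 and 40.6 in WT mice. The cDC1 arrays of all genotypes overlapped one another and lay above all cDC2 arrays. In cDC2 the order was Flt3 KO, Flt3L KO and WT, with no overlap between neighbours. Tlr12 was 7.93-fold higher in WT cDC1 than in WT cDC2 (log2 difference 2.99, SE 0.17, adjusted p = 2e-08), 5.09-fold in Flt3L KO mice and 4.59-fold in Flt3 KO mice.

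Tlr7, the single-stranded RNA receptor, showed the widest span of all, 5.18 on the log2 scale between its highest and lowest group means. Its intensity was 17.0 and 15.8 in Flt3L KO cDC1, 14.6 and 12.7 in Flt3 KO cDC1 and 14.0 and 11.8 in WT cDC1. In cDC2 it was 432 and 454 in Flt3L KO, 464 and 444 in Flt3 KO and 471 and 462 in WT mice. In cDC2 the Flt3 KO arrays overlapped those of both other genotypes, and the Flt3L KO arrays lay below the WT arrays, by -0.08 on the log2 scale (SE 0.10, adjusted p = 0.777). All 6 cDC1 arrays lay under the lower quartile of their array. Tlr7 was 36.2-fold lower in WT cDC1 than in WT cDC2 (log2 difference -5.18, SE 0.10, adjusted p = 1.76e-12), 27.0-fold in Flt3L KO and 33.4-fold in Flt3 KO mice, sizes that rest on dim cDC1 values. In cDC1 the Flt3L KO arrays lay above the overlapping arrays of Flt3 KO and WT.

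Tlr8, the relative of Tlr7, lies directly beside it on chromosome X: in the RefSeq gene order of GRCm38.p6 the coding genes run Tmsb4x, Tlr8, Tlr7, Prps2. Its intensity was 15.6 and 20.4 in Flt3L KO cDC1, 12.4 and 15.6 in Flt3 KO cDC1 and 17.0 and 16.3 in WT cDC1, all under the lower quartile of their array. In cDC2 it was 104 and 91.0 in Flt3L KO, 75.7 and 70.3 in Flt3 KO and 62.4 and 66.4 in WT mice. Those 3 cDC2 groups did not overlap, while the Flt3L KO and WT arrays overlapped in cDC1, with Flt3 KO lowest and apart from WT. Tlr8 was 3.87-fold lower in WT cDC1 than in WT cDC2 (log2 difference -1.95, SE 0.13, adjusted p = 8.77e-08), 5.44-fold in Flt3L KO mice and 5.25-fold in Flt3 KO mice.

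Tlr9 and Tlr13, the receptors for CpG DNA and bacterial ribosomal RNA, were measured well above the lower quartile in both cell types and differed less. Tlr9 had an intensity of 521 and 566 in Flt3L KO cDC1, 460 and 474 in Flt3 KO cDC1 and 527 and 455 in WT cDC1. In cDC2 it read 766 and 788 in Flt3L KO, 715 and 728 in Flt3 KO and 763 and 726 in WT mice. In cDC1 the WT arrays overlapped those of both knockouts, and the Flt3L KO arrays lay above the Flt3 KO arrays (log2 difference 0.22, adjusted p = 0.244). In cDC2 the Flt3L KO arrays stood above the other genotypes, by little. Tlr9 was 1.52-fold lower in WT cDC1 than in WT cDC2 (log2 difference -0.60, SE 0.09, adjusted p = 8.39e-05), with 1.43-fold and 1.54-fold in Flt3L KO and Flt3 KO mice. Tlr13 had an intensity of 218 and 227 in Flt3L KO cDC1, 276 and 224 in Flt3 KO cDC1 and 185 and 248 in WT cDC1, against 498 and 368, 426 and 329, and 359 and 397 in cDC2 of the same genotypes in that order. Within each cell type the Tlr13 arrays of all genotypes overlapped. Tlr13 was 1.76-fold lower in WT cDC1 than in WT cDC2 (log2 difference -0.82, SE 0.17, adjusted p = 0.00195), 1.92-fold in Flt3L KO and 1.51-fold in Flt3 KO mice. The Flt3 KO call for Tlr13 (adjusted p = 0.0159) was lost without Flt3 KO cDC2 replicate 1 (log2 difference -0.40, adjusted p = 0.16) and without Flt3 KO cDC1 replicate 2 (-0.44, adjusted p = 0.143).

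Unc93b1, the chaperone, had the smallest span of the 7 genes, 0.48 on the log2 scale between its highest and lowest group means. Its intensity was 1418 and 1476 in Flt3L KO cDC1, 1456 and 1381 in Flt3 KO cDC1 and 1431 and 1428 in WT cDC1. In cDC2 it was 1098 and 986 in Flt3L KO, 1323 and 1167 in Flt3 KO and 1203 and 1273 in WT mice. The cDC1 arrays overlapped across genotypes, and in cDC2 the Flt3L KO arrays lay below those of Flt3 KO and WT, which overlapped. The cDC1 over cDC2 fold was 1.39 in Flt3L KO mice (log2 difference 0.48, SE 0.09, adjusted p = 0.000719), 1.14 in Flt3 KO mice (adjusted p = 0.111) and 1.16 in WT mice (adjusted p = 0.0729). The WT difference passed the test when the dimmer share of 0.5 of the genes was left out (adjusted p = 0.0481) and with a trended, robust prior (adjusted p = 0.0258). Averaged over the genotypes Unc93b1 was higher in cDC1 by 0.29 on the log2 scale (SE 0.05, adjusted p = 0.000232).

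**Figure D3:**
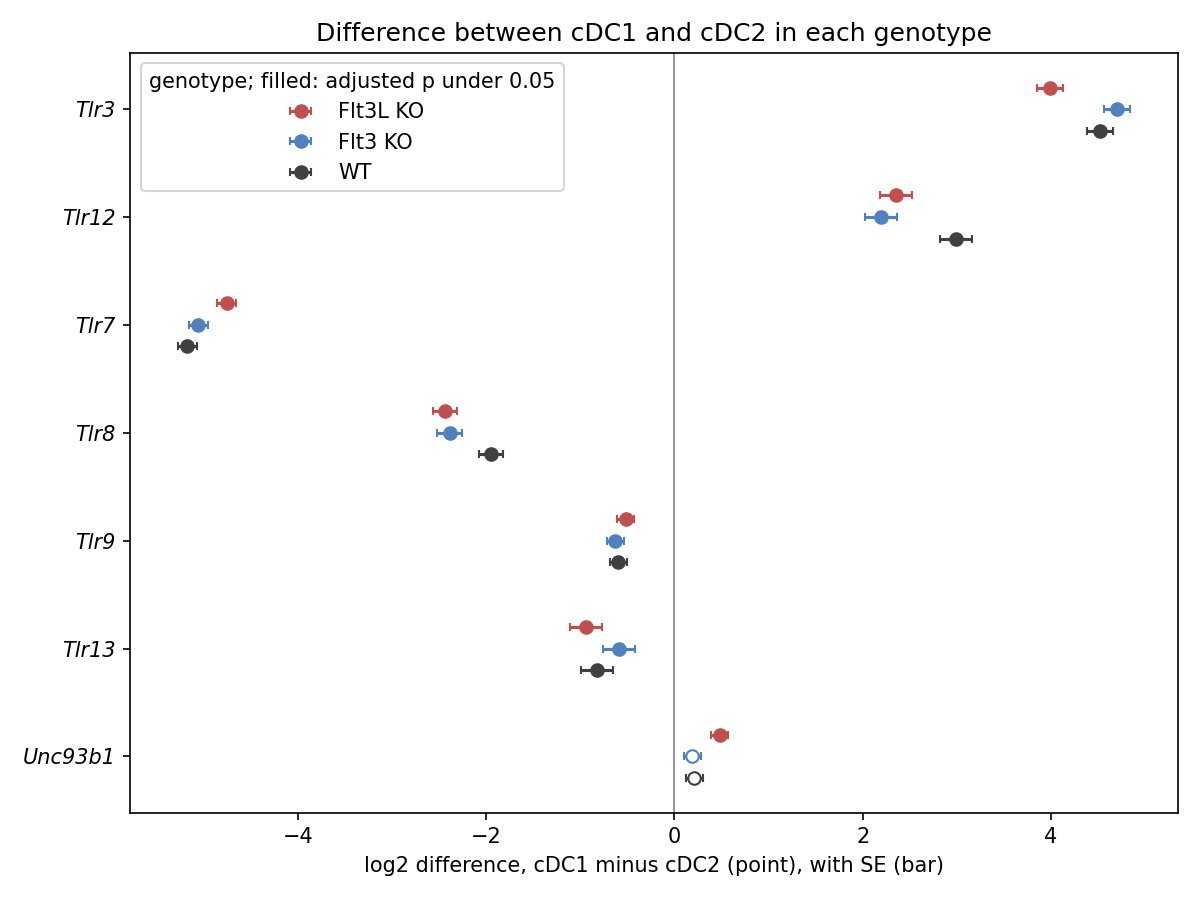
Log2 difference between cDC1 and cDC2 (point) with its SE (bar) for each gene in Flt3L KO, Flt3 KO and WT mice; filled points passed the test. Every gene kept its sign in the 3 genotypes, from -5.18 for Tlr7 to 4.52 for Tlr3 in WT mice.

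In Flt3L KO mice 7 of the 7 genes passed, 3 higher and 4 lower in cDC1, where 34.8% of all genes passed (18.9% higher and 15.9% lower). In Flt3 KO mice 6 of 7 passed, 2 higher and 4 lower, where 35.5% did (19.1% higher and 16.4% lower). Averaged over genotypes 7 of 7 passed, 3 higher and 4 lower, against 51.6% of all genes (28.1% higher and 23.5% lower). Leaving out 1 array at a time kept the WT count at 6 and the Flt3L KO count at 7, and the Flt3 KO count was 5 or 6. Markers of other cell types were also read in the subsets. The plasmacytoid dendritic cell list, a cell type known for Tlr7 and Tlr9, had 3 genes higher and 3 lower of 10 tested in WT cDC1, and its summed intensity was 1772 to 1786 in WT cDC1 and 1922 to 2017 in WT cDC2. The B cell list summed to 447 to 461 in WT cDC1 and 434 to 436 in WT cDC2, with Cd79a and Ebf1 under the lower quartile in both, and had 1 gene higher and 1 lower of 6 tested. The macrophage list had 2 genes higher and 5 lower of 11 tested and summed to 1140 to 1166 in WT cDC1 and 2032 to 2073 in WT cDC2, with Cd5l under the lower quartile in WT cDC2. Adgre1, which encodes the macrophage antigen F4/80, made up that gap: it read 41.7 and 41.3 in WT cDC1, against 996 and 943 in WT cDC2, and the other 11 genes summed to 1099 to 1124 in WT cDC1 and 1078 to 1089 in WT cDC2. The monocyte list had 2 higher and 2 lower of 7 tested and summed to 10048 to 10391 in WT cDC1 and 10598 to 10826 in WT cDC2. Nr4a1 alone read 6125 and 6261 in WT cDC1 and 6953 and 7065 in WT cDC2. No marker was listed at 0, and the part of these lists in the differences between cDC1 and cDC2 was not tested.

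Loss of the receptor Flt3 was compared with WT next, separately in each subset. None of the 7 genes passed the test in either cell type. In cDC1 the log2 differences ran from -0.26 for Tlr8 to 0.21 for Tlr13, 0 of 7 genes passed limma's test and 0 of 7 had an unadjusted p under 0.05, while 0.0802% of all genes passed (12 genes, with 1873 under the unadjusted threshold). In cDC2 0 of 7 passed, where 0.107% of all genes did (16 genes, with 1089 under the unadjusted threshold). Tlr12 was the 1 gene under the unadjusted threshold there. It read 58.6 and 55.4 in Flt3 KO cDC2, against 38.0 and 40.6 in WT cDC2. The arrays did not overlap, and the difference was 0.54 on the log2 scale (SE 0.17, adjusted p = 0.442 with limma). Tlr3 in Flt3 KO cDC2 differed by -0.24 from WT (SE 0.14, adjusted p = 0.806).

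With loss of the ligand, Flt3L, 1 receptor gene passed the test in each subset. Both differences were smaller than those of the same gene between the subsets, and neither call held in every fit run. In Flt3L KO cDC1, Tlr3 was lower than in WT cDC1, at 690 ± 10.5 against 1129 ± 295 (SD, n = 2 each). Both Flt3L KO arrays, 698 and 683, lay below both WT arrays, 921 and 1337. The difference was -0.69 on the log2 scale (SE 0.14), or 1.61-fold lower, with adjusted p = 0.0454 in limma's fit. It was the 1 of 7 genes that passed, where 1.19% of all genes did, 0.776% as higher and 0.415% as lower. The WT arrays differed more from each other than the Flt3L KO arrays did, and the call depends on which array is used: without WT cDC1 replicate 1 the difference was -0.95 (adjusted p = 0.00301), without WT cDC1 replicate 2 it was -0.42 (adjusted p = 0.0572), and without Flt3L KO cDC1 replicate 1 or 2 it was -0.70 (adjusted p = 0.206) and -0.67 (adjusted p = 0.16). The call was also lost with no filter on dim genes (adjusted p = 0.0578) and with only the arrays compared in the fit (adjusted p = 0.291).

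Tlr12 in Flt3L KO cDC1 differed by -0.30 from WT (SE 0.17, adjusted p = 0.411), and by -0.65 (adjusted p = 0.0466) without WT cDC1 replicate 1. Tlr7 in Flt3L KO cDC1 differed by 0.35 (SE 0.10, adjusted p = 0.0988), between dim values of 17.0 and 15.8 in Flt3L KO and 14.0 and 11.8 in WT. The remaining 4 genes lay between 0.02 and 0.15 on the log2 scale. In the marker lists, 0 of 10 cDC1 markers and 0 of 10 cDC2 markers passed in Flt3L KO cDC1 against WT. The cDC1 markers summed to 21115 to 21760 in Flt3L KO cDC1 and 22034 to 22689 in WT cDC1, and the cDC2 markers to 2306 to 2474 and 2167 to 2205 in the same order. The macrophage list had 1 gene lower of 11 tested, Timd4, and summed to 979 to 1069 in Flt3L KO cDC1 and 1140 to 1166 in WT cDC1. The monocyte list had 0 of 7 called and summed to 8659 to 9080 in Flt3L KO cDC1 and 10048 to 10391 in WT cDC1. Nr4a1, Treml4 and Lyz2, the brightest genes of that sum, each read lower, though none passed the test. Nr4a1 read 5364 and 5764 in Flt3L KO cDC1 and 6125 and 6261 in WT cDC1. Treml4 read 1336 and 1617, against 1993 and 2074, and Lyz2 read 1046 and 938, against 1211 and 1288. Ms4a6c (log2 difference 0.21), Ace (0.13) and Ccr2 (0.10) went the other way, also without passing. The arrays of Ace, Ccr2 and Fcgr1 overlapped between these groups. No marker was listed at 0, and the part of these lists in the lower Tlr3 was not tested.

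In Flt3L KO cDC2, Tlr8 was higher than in WT cDC2, at 97.3 ± 8.96 against 64.4 ± 2.86 (SD, n = 2 each). Both Flt3L KO arrays, 104 and 91.0, lay above both WT arrays, 62.4 and 66.4. The difference was 0.59 on the log2 scale (SE 0.13), or 1.51-fold, with adjusted p = 0.039 in limma's fit, and 1 of 7 genes passed where 1.95% of all genes did, 1.04% as higher and 0.909% as lower. Leaving out any single array of the comparison ended the call: the difference was then 0.55 (adjusted p = 0.231) and 0.64 (adjusted p = 0.178) without WT cDC2 replicate 1 and 2, and 0.50 (adjusted p = 0.256) and 0.69 (adjusted p = 0.0812) without Flt3L KO cDC2 replicate 1 and 2. Unc93b1 differed by -0.25 (SE 0.09, adjusted p = 0.187), with 1098 and 986 in Flt3L KO cDC2 below 1203 and 1273 in WT cDC2. Tlr12 differed by 0.34 (SE 0.17, adjusted p = 0.39), also with no overlap, and Tlr3 by -0.16 (SE 0.14, adjusted p = 0.661).

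The marker lists were read in that comparison as well. Of the 11 tested macrophage markers, 6 were higher in Flt3L KO cDC2 than in WT cDC2 (Vcam1, C1qa, C1qb, C1qc, Mertk and Hmox1) and 2 lower (Timd4 and Adgre1). Their summed intensity was 2833 to 3226 in Flt3L KO cDC2, 2185 to 2254 in Flt3 KO cDC2 and 2032 to 2073 in WT cDC2. Without Adgre1 it was 2216 to 2625 in Flt3L KO cDC2, 1349 to 1443 in Flt3 KO cDC2 and 1078 to 1089 in WT cDC2. C1qa, a complement subunit made by macrophages, read 790 and 569 in Flt3L KO cDC2, 363 and 280 in Flt3 KO cDC2 and 135 and 157 in WT cDC2, all 3 groups apart. Adgre1 read 601 and 617 in Flt3L KO cDC2, against 996 and 943 in WT cDC2, and Cd5l read 23.0 and 29.1, against 22.0 and 17.3. The monocyte list had 3 of 7 genes higher (Lyz2, Ace and Treml4) and summed to 10744 to 11330 in Flt3L KO cDC2 and 10598 to 10826 in WT cDC2. Nr4a1, the brightest gene of that sum, read 6290 and 6093, against 6953 and 7065. In WT mice Vcam1, Hmox1, Lyz2 and Treml4 were themselves higher in cDC1 than in cDC2 (log2 differences 0.88, 1.03, 0.78 and 2.44). C1qa, C1qb, C1qc and Ace were lower in WT cDC1 (-0.84, -0.80, -0.60 and -2.85), and Mertk did not pass (-0.13). Of the cDC2 markers 2 of 10 were lower (Clec4a4 and Cd209a), with sums of 10002 to 10299 in Flt3L KO cDC2 and 11141 to 11309 in WT cDC2, and of the cDC1 markers 2 of 10 were higher (Irf8 and Cadm1), with sums of 6293 to 6458 and 6480 to 6675 in the same order. The plasmacytoid list had 0 of 10 called (2094 to 2260 in Flt3L KO cDC2 and 1922 to 2017 in WT cDC2), and of 6 tested B cell genes only Blnk was higher. No marker was listed at 0, and the part of these markers in the higher Tlr8 was not tested.

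**Figure D4:**
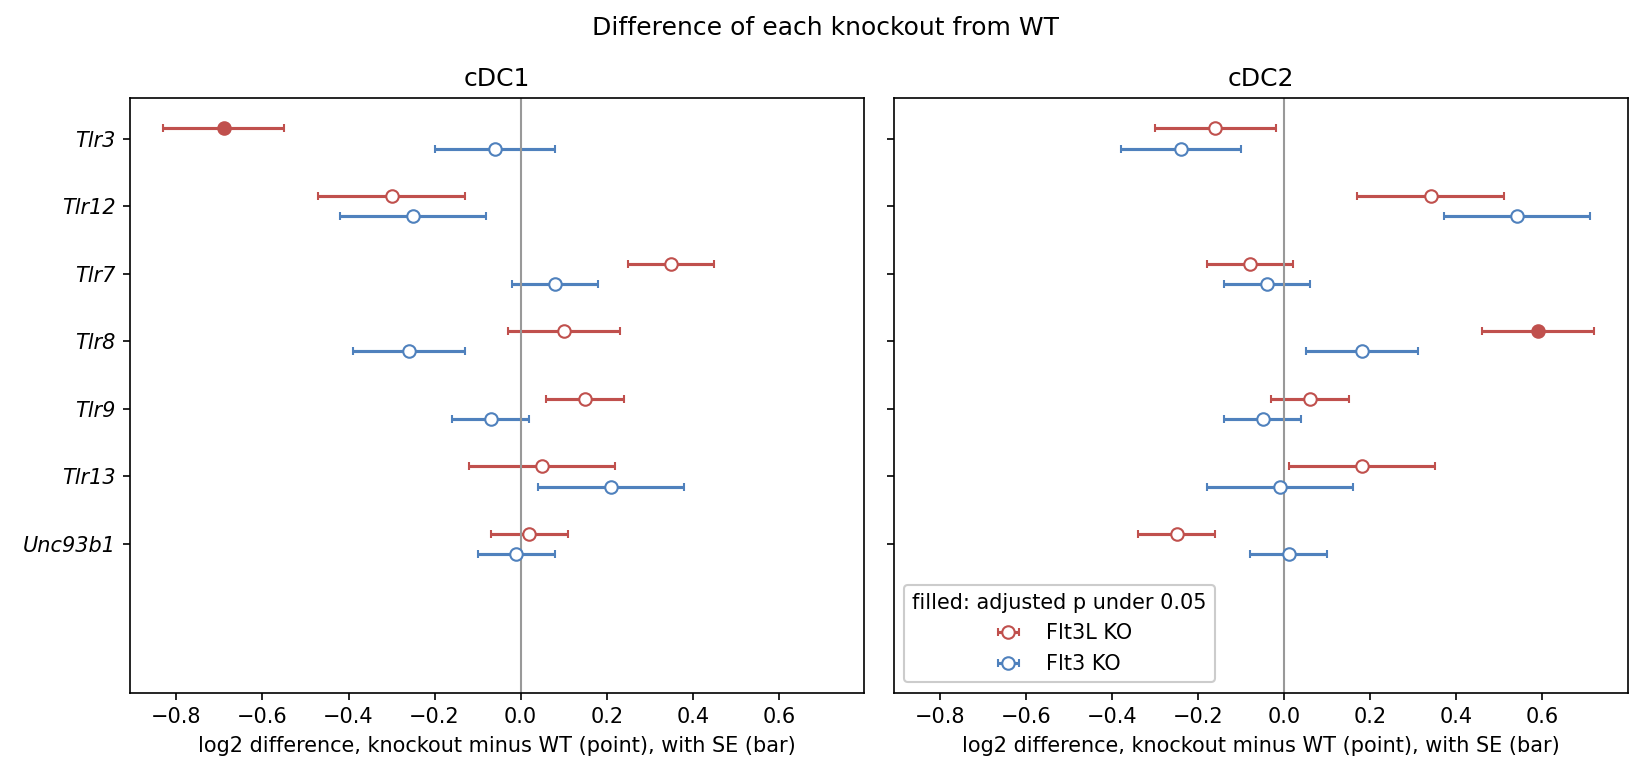
Log2 difference of Flt3L KO and Flt3 KO from WT (point) with its SE (bar) in cDC1 (left) and cDC2 (right); filled points passed the test and both knockouts share the WT arrays. The filled points are Tlr3 in Flt3L KO cDC1 at -0.69 and Tlr8 in Flt3L KO cDC2 at 0.59.

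The comparisons of each knockout with WT share their WT arrays, so the knockouts were also compared with each other directly. In limma's fit 0 of 7 genes passed between Flt3L KO and Flt3 KO in either cell type, where 0.883% of all genes passed in cDC1 and 0.93% in cDC2. In cDC1 4 of 7 genes had an unadjusted p under 0.05, as did 2363 of all 14954 genes. In cDC2 2 of 7 did, and 1892 of all genes. Tlr3 was 698 and 683 in Flt3L KO cDC1, against 1147 and 992 in Flt3 KO cDC1. The arrays were apart, and the difference was -0.63 on the log2 scale (SE 0.14, adjusted p = 0.0623), with adjusted p of 0.0418 and 0.0209 when the dimmer share of 0.5 was left out or the prior was trended and robust. Tlr8 in cDC2 differed by 0.41 (SE 0.13, adjusted p = 0.194) and Unc93b1 in cDC2 by -0.26 (SE 0.09, adjusted p = 0.226).

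Whether an effect differed between the subsets was tested as the knockout effect in cDC2 minus that in cDC1. For neither knockout did any of the 7 genes pass in limma's fit (0 of 7 each, against 0.495% of all genes for Flt3L KO and 0.0% for Flt3 KO). For Flt3L KO, 5 of 7 genes had an unadjusted p under 0.05, as did 2220 of all 14954 genes. For Flt3 KO 2 of 7 did, and 1342 of all genes. The largest for Flt3L KO were Tlr12 at 0.64 (SE 0.24, adjusted p = 0.259), Tlr3 at 0.52 (SE 0.20, adjusted p = 0.259) and Tlr8 at 0.49 (SE 0.19, adjusted p = 0.256). Tlr7, which had the smallest p, stood at -0.42 (SE 0.14, adjusted p = 0.199) and rests on dim cDC1 values. Without WT cDC1 replicate 1, Tlr3 at 0.79 (adjusted p = 0.0439) and Tlr12 at 0.99 (adjusted p = 0.0307) passed. With all arrays in the fit, the effects on Tlr3 and Tlr8 were thus not shown to differ between cDC1 and cDC2.

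The genes around these receptors were read from lists for each step of the pathway, in WT cDC1 against WT cDC2 (39.4% of all genes passed). Fewer genes passed over all in the fit without WT cDC1 replicate 1. List counts from that fit, here and below, are thus not to be set against 39.4%. Among surface Toll-like receptors and coreceptors 1 of 7 tested genes was higher and 4 were lower in cDC1. Cd36, a scavenger receptor that assists TLR2 and TLR6, was 20.0-fold higher in cDC1 (adjusted p = 7.64e-12), whereas Tlr1 was 11.3-fold, Tlr2 2.37-fold and Tlr6 2.25-fold lower. Of the 16 genes for receptor folding and endosomal traffic 9 were higher and 4 lower. Without WT cDC1 replicate 1 the counts were 1 higher and 3 lower in the surface list, and 10 higher and 3 lower in the traffic list. Rab7b, a GTPase of late endosomes, had an intensity of 2451 and 2391 in WT cDC1, against 104 and 93.2 in WT cDC2, 24.6-fold higher (adjusted p = 2.16e-12). Ap3d1, a subunit of the AP-3 adaptor that sorts receptors to endosomes, was 1.89-fold higher. Slc15a3 and Slc15a4, histidine transporters of endolysosomes, were 3.10-fold and 2.38-fold lower in cDC1, the direction of Tlr7 and Tlr9. Of these 2, Slc15a4 is the one on which TLR7 and TLR9 responses are known to depend.

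Of the 6 tested proteases that can cleave the receptors, 4 were lower in WT cDC1 and 0 higher. They were Lgmn, encoding asparagine endopeptidase (3.98-fold, adjusted p = 1.09e-09), and the cathepsin genes Ctsl (1.76-fold), Ctsh (1.64-fold) and Ctss (1.41-fold). In the MyD88 branch 2 of 14 genes were higher and 6 lower. Tirap and Myd88, both adaptors, were 1.77-fold and 1.63-fold higher, while the NF-kB subunit Rela and the kinase Irak2 were 1.65-fold and 1.51-fold lower. The TRIF list covers that branch for Toll-like receptors in general, not for TLR3 alone. In it 1 of 7 genes was higher (Ripk3, 1.16-fold) and 2 lower (Ticam2, 1.92-fold, and Pik3r1, 1.22-fold). Ticam1, the gene of TRIF itself, differed by -0.11 on the log2 scale and did not pass. Without WT cDC1 replicate 1 the counts were 2 higher and 5 lower in the MyD88 branch and 1 higher and 1 lower in the TRIF branch. Of 13 negative regulators 3 were higher, among them Trim30a (1.68-fold) and Sarm1 (1.45-fold), and 6 lower, among them the deubiquitinase gene Tnfaip3 (1.90-fold) and Irak3 (1.89-fold). Without WT cDC1 replicate 1 the regulators had 3 higher and 5 lower.

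Among the 9 genes for nucleases and ligand supply 1 was higher (Sidt1, 1.30-fold) and 4 lower. The lower genes included Sidt2, an RNA transporter of lysosomes (2.03-fold), Hmgb1 (1.64-fold) and Pld3, a lysosomal exonuclease that trims TLR9 ligands (1.55-fold). The cytosolic nucleic acid sensors, a separate route to the same ligands, had 1 of 11 genes higher and 7 lower in WT cDC1. Ddx58, encoding RIG-I, read 58.8 and 35.5 in WT cDC1, against 553 and 493 in WT cDC2, 11.4-fold lower (adjusted p = 1.02e-08), and Ifih1, Sting1 and Mavs were 1.69-fold, 1.60-fold and 1.55-fold lower. Without WT cDC1 replicate 1 the counts were 0 higher and 7 lower in the cytosolic list. Of 11 cytokine and chemokine targets 4 were higher and 5 lower, or 3 and 4 without WT cDC1 replicate 1. Cxcl9 (9.92-fold), Il12b (6.43-fold) and Il15 (2.90-fold) stood higher in cDC1, and Ccl3 (2.95-fold) and Tnf (2.65-fold) lower.

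**Figure D5:**
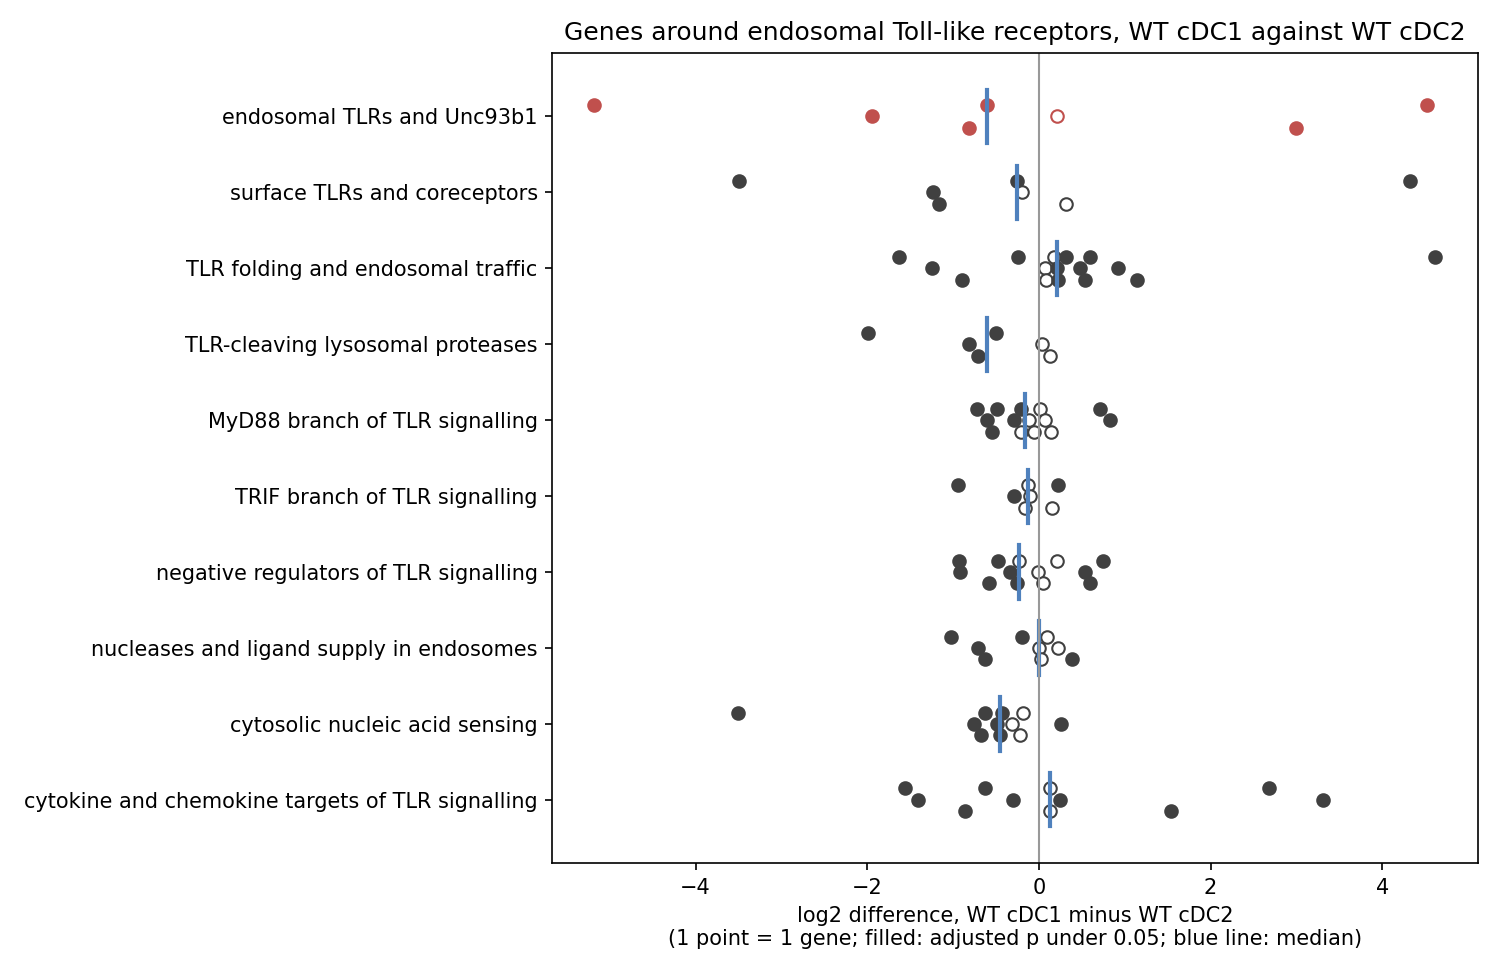
Log2 difference between WT cDC1 and WT cDC2 for the endosomal receptors with Unc93b1 (red) and for 9 lists of genes around them (dark); 1 point is 1 gene, filled points passed the test, and the blue line is the median of the list. The 4 filled points of the protease list lie below 0, and Tlr7, Tlr3, Cd36 and Rab7b lie farthest from 0.

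In the knockouts few of these genes moved. Between Flt3 KO and WT 0 of the 94 tested genes of the 9 pathway lists passed in limma's fit in either cell type. In Flt3L KO cDC1 5 of 94 genes (5.32%) passed against WT, where 1.19% of all genes did. Slc15a4, the histidine transporter, read 354 and 342 in Flt3L KO cDC1, against 245 and 239 in WT cDC1, 1.44-fold higher (adjusted p = 0.00561), and lost the call only without Flt3L KO cDC1 replicate 1. The chemokine gene Ccl3 read 519 and 714 in Flt3L KO cDC1, against 1165 and 1202 in WT cDC1, 1.94-fold lower (adjusted p = 0.0145), and it too lost the call only without Flt3L KO cDC1 replicate 1. Ccl4 differed by -0.57 (adjusted p = 0.0344) and Cd180, encoding a TLR-like receptor of antigen-presenting cells, by -0.63 (adjusted p = 0.0265), Ccl4 losing the call without WT cDC1 replicate 1 or Flt3L KO cDC1 replicate 1 and Cd180 without these or Flt3L KO cDC1 replicate 2. Cd36 differed by -0.52 (adjusted p = 0.0381), a call that no fit with an array of the comparison left out kept.

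In Flt3L KO cDC2 6 of 94 genes (6.38%) passed against WT, where 1.95% of all genes did. Cd36 read 143 and 124 in Flt3L KO cDC2, 72.9 and 63.2 in Flt3 KO cDC2 and 51.1 and 57.7 in WT cDC2. The 3 groups were apart, and Flt3L KO was 2.46-fold above WT (adjusted p = 7.11e-05), a call kept without any 1 of the 4 arrays. The effect of Flt3L KO on Cd36 in cDC2 minus that in cDC1 was 1.82 on the log2 scale (SE 0.15, adjusted p = 0.000317). Cd36 is also made by macrophages. In the same comparison 6 of 11 tested macrophage markers were higher and 2 lower. Their sums were 2833 to 3226 in Flt3L KO cDC2 and 2032 to 2073 in WT cDC2. Cd36 was also among the genes higher in WT cDC1 than in WT cDC2. Of the cDC1 markers 2 of 10 were higher and 0 lower in Flt3L KO cDC2. They summed to 6293 to 6458 in Flt3L KO cDC2 and 6480 to 6675 in WT cDC2. The part of either list in the Cd36 difference was not tested. Of the other 5 genes, Pld3 (log2 difference 0.60), Il12b (0.51) and Cd180 (-0.50) kept the call in 1 of 4 fits with an array left out, and Rab7b (0.43) and Hmgb1 (-0.48) in 0 of 4.

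The genes whose levels followed each receptor most closely were found by the Pearson correlation of log2 intensity over the 12 arrays, for the 4 receptors whose group means spanned more than 1 on the log2 scale. The arrays fall into the cDC1 and cDC2 clusters and these coefficients mostly describe that division, so the coefficient within the 6 arrays of each cell type is given as well. Closest to Tlr3 were Agpat3 (r = 0.9988, with 0.98 within cDC1 and 0.48 within cDC2), Endod1 (0.9984, with 0.90 and 0.95) and Cxcr3 (0.9974, with 0.88 and 0.62). Closest to Tlr7 was Sirpa (0.9992), the gene of a surface protein that marks cDC2, with 0.78 within cDC1 and -0.77 within cDC2. Clec4a1 (0.9991, with 0.88 and -0.12) and Vegfa (0.9987, with 0.89 and 0.16) came next, so within cDC2 none of the 3 followed Tlr7 closely in the same direction. Closest to Tlr8 were Fam110a (0.9918, with 0.69 and 0.87), Ist1 (0.9904, with 0.56 and 0.92) and Limd2 (0.9901, with 0.83 and 0.72), and closest to Tlr12 were Prr5 (0.9954, with 0.85 and 0.93), Slc7a8 (0.9922, with 0.75 and 0.83) and Fkbp1b (0.9918, with 0.96 and 0.72). These genes were picked for following the receptors over the same arrays, so their knockout differences are not separate evidence. Against WT in Flt3L KO cDC1, where Tlr3 was lower, Agpat3 and Endod1 each differed by -0.21 (adjusted p = 0.207 and 0.277 with limma). Cxcr3 differed by -0.41 (adjusted p = 0.0535) and Sirpa, listed above with Tlr7, by 0.39 (adjusted p = 0.0599). Of these 12 genes 1 passed in a comparison of a knockout with WT. Slc7a8, listed with Tlr12, was higher in Flt3L KO cDC2 (log2 difference 0.42, SE 0.09, adjusted p = 0.0379 with limma), where 1.95% of all genes passed.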

How the data were processed

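RNA of 12 sorted samples was labelled with biotin and hybridised to GeneChip arrays, per the labels. The values used are the authors' deposited table, which gives the intensity of each probe set on each array without a log transform. How the authors corrected background, summarised probes and normalized arrays was not given in the sources used here, and detection calls were not used. When the log2 values of each array were sorted, they lay a median of 0.0125 from the average over arrays at the same rank. Of 30177 probe sets, 21789 had 1 gene symbol in the platform annotation, 1621 had several and 6767 were not listed there; only the first kind was named. Each gene was taken from its probe set with the highest mean, the lowest share of 0.25 of genes by mean log2 intensity was left out, and the listed receptor genes and Unc93b1 were kept in any case (all 7 also passed that filter). This left 14954 genes.

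Groups came from the sample labels. Log2 intensities were fitted with limma 3.58.1 in R 4.3.3 with 1 mean per group over all 12 arrays, which leaves 6 residual degrees of freedom; p-values were adjusted by Benjamini-Hochberg within each of 12 comparisons, and an adjusted p under 0.05 counted as passing. The fit was tested on simulated data. A fold is 2 to the power of the log2 difference of means. Tables and figures used Python 3.11.15, pandas 2.3.3, numpy 2.4.6 and matplotlib 3.10.9. The number of arrays, 2 per group, limits the precision. Alternatives were a filter share of 0.5 or none, a prior that was trended and robust (statmod 1.5.0), quantile normalization and averaging all probe sets per gene. Further ones were replicate number as a block of fixed terms over all arrays or within a genotype, only the arrays compared, and each array left out in turn.

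The 8 member genes and the gene lists were chosen with earlier results of these data known. Named from each pathway list were up to 4 genes with the smallest p in WT cDC1 against WT cDC2 and those called in a knockout comparison. From the marker lists, genes that passed were named, and also some that did not pass or were not tested. For each receptor spanning over 1 on the log2 scale, the 3 genes with the highest correlation were named, without predicted genes. Flt3 and Flt3l were read as a check of the labels.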

Additional observations from a re-analysis of the deposited data

How the results depend on the processing

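The directions of Tlr3, Tlr12, Tlr7, Tlr8, Tlr9, Tlr13 and Unc93b1 between cDC1 and cDC2 held under every alternative run. The knockout differences are small beside the spread of 2 arrays per group, and Tlr7 and Tlr8 are near the dim end in cDC1, which limits their folds. The call of Tlr3 in Flt3L KO cDC1 against WT was lost, so that the count of genes passing was 0 in place of 1, with no filter on dim genes (adjusted p = 0.0578), with a replicate block (0.0612) and with only the arrays compared (0.291); the adjusted p ran from 0.00301 to 0.291 over its 12 alternatives, 6 of which kept the call. The numbers of calls over all genes were then 98, 118 and 6, against 178. Between Flt3L KO cDC1 and Flt3 KO cDC1 the count was 1 in place of 0, always Tlr3, with a filter share of 0.5, with a trended and robust prior, or with only the arrays compared (267, 401 and 78 genes over all, against 132). The cause of these changes was not tested.

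Replicate numbers are shared by the labels. Deviations of equal numbers in cDC1 and cDC2 of 1 genotype correlated at 0.0884 to 0.159, in WT and knockout groups at -0.199 to -0.0491, and in groups of the 2 knockouts at 0.0374 to 0.172; since not every pair was over 0.1, the numbers were not taken as pairs. The replicate block left the other counts of passing genes as they were. A block with the WT numbers crossed, chosen after seeing the data, gave 1 gene in place of 0 between Flt3L KO cDC1 and Flt3 KO cDC1 and 236 genes over all.

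With each array left out in turn, the count ran from 0 to 2 for Flt3L KO cDC1 against WT, from 0 to 0 for Flt3L KO cDC2 against WT, and from 0 to 2 for the difference of the Flt3L KO effect between cDC2 and cDC1. Over all genes the calls of Flt3L KO cDC2 against WT fell to between 72 and 164, against 291. Of the single-gene values with 1 array left out, 406 kept side and sign, 12 crossed the threshold and 30 changed sign. In Flt3 KO cDC1 against WT the log2 differences then ran from -0.33 to 0.21 for Tlr3, -0.04 to 0.20 for Tlr7, -0.17 to 0.04 for Tlr9, -0.60 to 0.10 for Tlr12 and -0.05 to 0.03 for Unc93b1. In Flt3 KO cDC2 against WT they ran from -0.20 to 0.18 for Tlr13 and -0.09 to 0.10 for Unc93b1. In Flt3L KO cDC1 against WT the ranges were -0.09 to 0.30 for Tlr8, -0.65 to 0.05 for Tlr12, -0.16 to 0.27 for Tlr13 and -0.01 to 0.05 for Unc93b1. In Flt3L KO cDC2 against WT, Tlr13 ran from -0.03 to 0.40. Between Flt3L KO and Flt3 KO the ranges were -0.17 to 0.09 for Tlr12 and -0.01 to 0.07 for Unc93b1 in cDC1, and -0.03 to 0.18 for Tlr3 and -0.02 to 0.41 for Tlr13 in cDC2. For the effect in cDC2 minus that in cDC1 they were, for Flt3 KO, -0.45 to 0.09 for Tlr3, -0.24 to 0.01 for Tlr7, -0.08 to 0.13 for Tlr9 and -0.07 to 0.11 for Unc93b1, and for Flt3L KO, -0.19 to 0.02 for Tlr9 and -0.09 to 0.34 for Tlr13. Among these ranges 1 value passed the test, Tlr12 at -0.65 in Flt3L KO cDC1 against WT without WT cDC1 replicate 1. The fits of the pathway and marker lists with 1 array left out were also chosen after seeing the data.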
